A study of Mus musculus with 19 samples.

Results

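The genes described here encode the class I molecules of the mouse major histocompatibility complex (MHC, called H2 in the mouse) and the proteins that supply them with peptides, together with the other genes that carry an H2- name. Members were all non-control probes whose gene name on the array starts with H2- or is B2m, Tap1, Tap2, Tapbp, Psmb8, Psmb9 or Psmb10. This gave 65 probes of 45 genes among 41174 probes on the array, and 48 of them, of 33 genes, were bright enough to be tested. The tested probes comprised 2 for the classical heavy chains, 24 for non-classical or related heavy chains, 2 for the light chain, 4 for peptide transport and loading, 4 for the immunoproteasome, 9 for class II and 3 for genes that carry an H2- name without being an MHC chain. The other 17 probes had group means of 5.79 to 6.03 on the log2 signal scale, near the level of the negative control spots, and 12 genes had no tested probe.

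A class I molecule is a heavy chain held together with the light chain beta-2 microglobulin and a short peptide. The peptides are cut from cellular proteins by the proteasome, in which interferon-inducible subunits can replace the standard ones, and are carried into the endoplasmic reticulum by the Tap1-Tap2 transporter, where tapasin helps to load them. The loaded complex is shown to cytotoxic T cells at the cell surface, and raised class I expression on islet cells is a known feature of autoimmune diabetes. The classical heavy chains are highly polymorphic between mouse strains, and the neighbouring Q, T and M genes encode less polymorphic relatives.

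The measurements came from 2-colour arrays of islet RNA from 19 male mice of 12 weeks of age, of the diabetes-resistant strain C57BL/6J (B6) or the diabetes-prone strain C57BLKS/J (BLKS), which was derived from B6 and DBA/2J among others. Islets of each mouse were kept apart, held for 48 h in 11 mM glucose and then cultured for 24 h in 5 mM (low) or 20 mM (high) glucose. Groups held 5 B6 and 5 BLKS mice in low glucose, and 5 B6 and 4 BLKS mice in high glucose, and the labels name no deletion or transgene in any of them. The paper states that B6 mice hold the b haplotype of H2 and BLKS mice the d haplotype. It also states that the B6 strain carries a deletion in the Nnt gene. Each mouse was measured in both dyes, and all values below are log2 processed signals averaged over dyes, with differences given as BLKS minus B6 or high minus low glucose. The median signal of a channel was 75.0 to 103 and its negative control spots had a median of 50.8 to 60.9, so that a log2 value near 6 lies close to background. Genes that mark islet endocrine cells were bright throughout: Ins1, Ins2, Iapp and Gcg were saturated on all 40 channels.

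Before the results, the strain labels of the libraries were checked. At 9 member probes that differed by at least 0.5 between the strains in high glucose, each low-glucose library was placed on a scale on which 0 is the mean of the B6 high-glucose mice and 1 that of the BLKS high-glucose mice. The library labelled B6 low glucose 4 had a median position of 1.14, and the library labelled BLKS low glucose 5 one of 0.14. The other B6 low-glucose libraries lay between -0.03 and 0.13 and the other BLKS low-glucose libraries between 0.99 and 1.11, so that both libraries went against their strain labels. They were kept under their labels. Counts of calls are given with and without both, as are the values of members and listed genes in the comparisons that hold low-glucose mice where leaving out both moved a call, and "without both libraries" below means these 2. The array probes' own sequences were not used here, and the Q, T and K genes hold near-identical stretches that differ between haplotypes, so that at any one probe a sequence difference under the probe, signal from a related transcript and a difference in RNA level cannot be told apart.

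**Figure D1:**
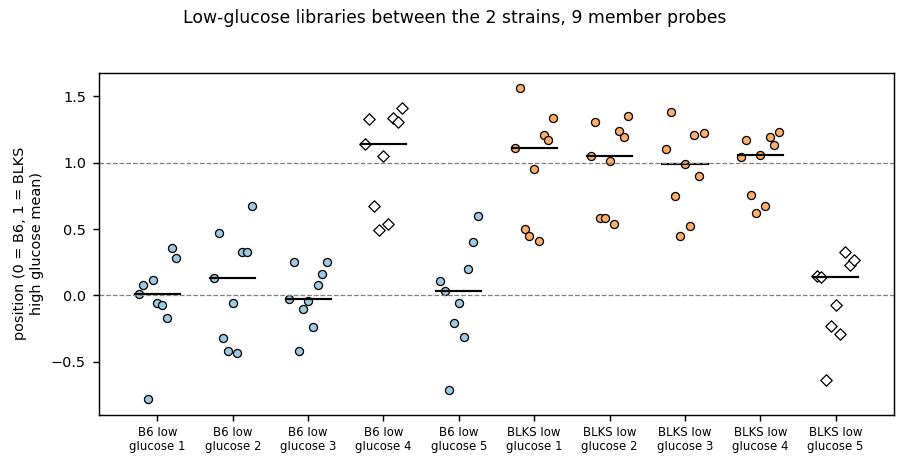
Position (vertical axis, no unit) of each low-glucose library (horizontal axis; 0 is the mean of the B6 high-glucose mice and 1 that of the BLKS high-glucose mice) at 9 member probes called in high glucose, each point being 1 probe and each line the median; open diamonds are the libraries that go against their labels. The points of the library labelled B6 low glucose 4 centre on 1.14 and those of the library labelled BLKS low glucose 5 on 0.14, on the opposite side from the other libraries of their labels.

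Promoters of 4 members are shown because class I genes, their light chain and the peptide supply genes are classically switched on through shared elements. The calls of these members also differed in the data below. H2-D1 and H2-T23 were higher in BLKS islets in high glucose, and B2m was not called in any comparison. Psmb9 was lower in high glucose, while its divergent neighbour Tap1, which read near background, was not called. The sequences are from RefSeq (GRCm38.p6, a C57BL/6J reference), are the bases just before the start site on the coding strand (for Psmb9 and Tap1 the whole stretch between their starts, read in the direction of Tap1), and capitals mark a match to the kB element, the core of the interferon-stimulated response element (ISRE) or the Y box.
H2-D1, chr17:35262914-35263093, plus strand: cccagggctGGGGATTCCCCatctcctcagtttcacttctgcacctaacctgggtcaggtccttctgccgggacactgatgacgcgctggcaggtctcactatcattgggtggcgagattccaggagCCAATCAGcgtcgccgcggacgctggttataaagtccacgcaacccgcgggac
H2-T23, chr17:36032702-36032881, minus strand: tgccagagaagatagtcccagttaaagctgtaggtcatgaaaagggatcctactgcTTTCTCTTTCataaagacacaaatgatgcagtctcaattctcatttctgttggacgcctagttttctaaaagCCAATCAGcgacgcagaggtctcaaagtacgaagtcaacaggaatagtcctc
B2m, chr2:122147507-122147686, plus strand: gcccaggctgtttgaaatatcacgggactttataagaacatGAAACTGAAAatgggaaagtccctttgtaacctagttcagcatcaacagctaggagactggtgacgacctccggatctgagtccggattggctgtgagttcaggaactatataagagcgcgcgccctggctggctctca
Psmb9-Tap1, chr17:34187331-34187555, plus strand: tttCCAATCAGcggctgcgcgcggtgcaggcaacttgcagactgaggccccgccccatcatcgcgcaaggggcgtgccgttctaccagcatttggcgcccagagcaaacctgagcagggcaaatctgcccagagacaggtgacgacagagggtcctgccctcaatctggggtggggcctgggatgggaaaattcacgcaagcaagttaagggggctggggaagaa
The kB element, searched as the first capitals of H2-D1 on the coding strand alone, begins 171 bases before the H2-D1 start. The ISRE core (GAAA, any 2 bases and GAAA again, or the same on the other strand) begins 124 bases before the H2-T23 start and 139 bases before the B2m start. The Y box (CTGATTGG or its reverse CCAATCAG) begins 53, 52 and 222 bases before the starts of H2-D1, H2-T23 and Tap1. Promoters were found for 34 of the 45 genes, as 38 windows of 250 bases. Both strands were searched for the ISRE core and the Y box, and the coding strand alone for the kB element. The Y box stood in 17 of the 38 (44.7%) against 3.83% of all 32851 promoters. The ISRE core stood in 3 against 2.98%, and the kB element in 3, of H2-D1 and H2-K1, against 0.0183% of all. Of the 16 genes with the Y box, H2-M1, H2-M9, H2-M10.1, H2-M10.3, H2-M10.4, H2-M10.5, H2-M10.6 and H2-M11 had no tested probe. As related genes, they are not independent counts. Only exact matches to these strings were marked and counted. A lower-case stretch, as in H2-D1 for the ISRE, therefore does not show that an element is absent. These matches describe the reference sequence only, and BLKS promoters were not examined.

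In high glucose, BLKS islets differed from B6 islets at 16 of the 48 member probes, of 14 genes, with 7 probes higher in BLKS and 9 lower. This is 33.3% of the members against 11.1% of all 29330 probes tested, of which 4.98% were higher and 6.13% lower (limma, Benjamini-Hochberg adjusted p under 0.05). The median size of the difference was 0.15 over the members and 0.06 over all probes. The groups did not overlap at 18 member probes, against 14.4% of all probes. Heavy chains made up 13 of the 16, and 1 called gene, Psmb10, lay outside chromosome 17. All 16 lay on the same side in each dye alone. The uncalled members ranged from -0.24 to 0.26. Without the B6-labelled library 4 and the BLKS-labelled library 5 of low glucose, which enter the shared spread, 20 members were called, against 15.3% of all probes. These were the same 16 with H2-Q10 A_52_P112219, Tap2, Tapbp A_51_P304500 and H2-Aa A_52_P343306. Among the added probes, those of H2-Q10 and H2-Aa read near background. With the array shared by a B6 and a BLKS mouse as a block, 21 (random) or 20 (fixed) members were called, against 25.2% and 20.0% of all probes.

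**Figure D2:**
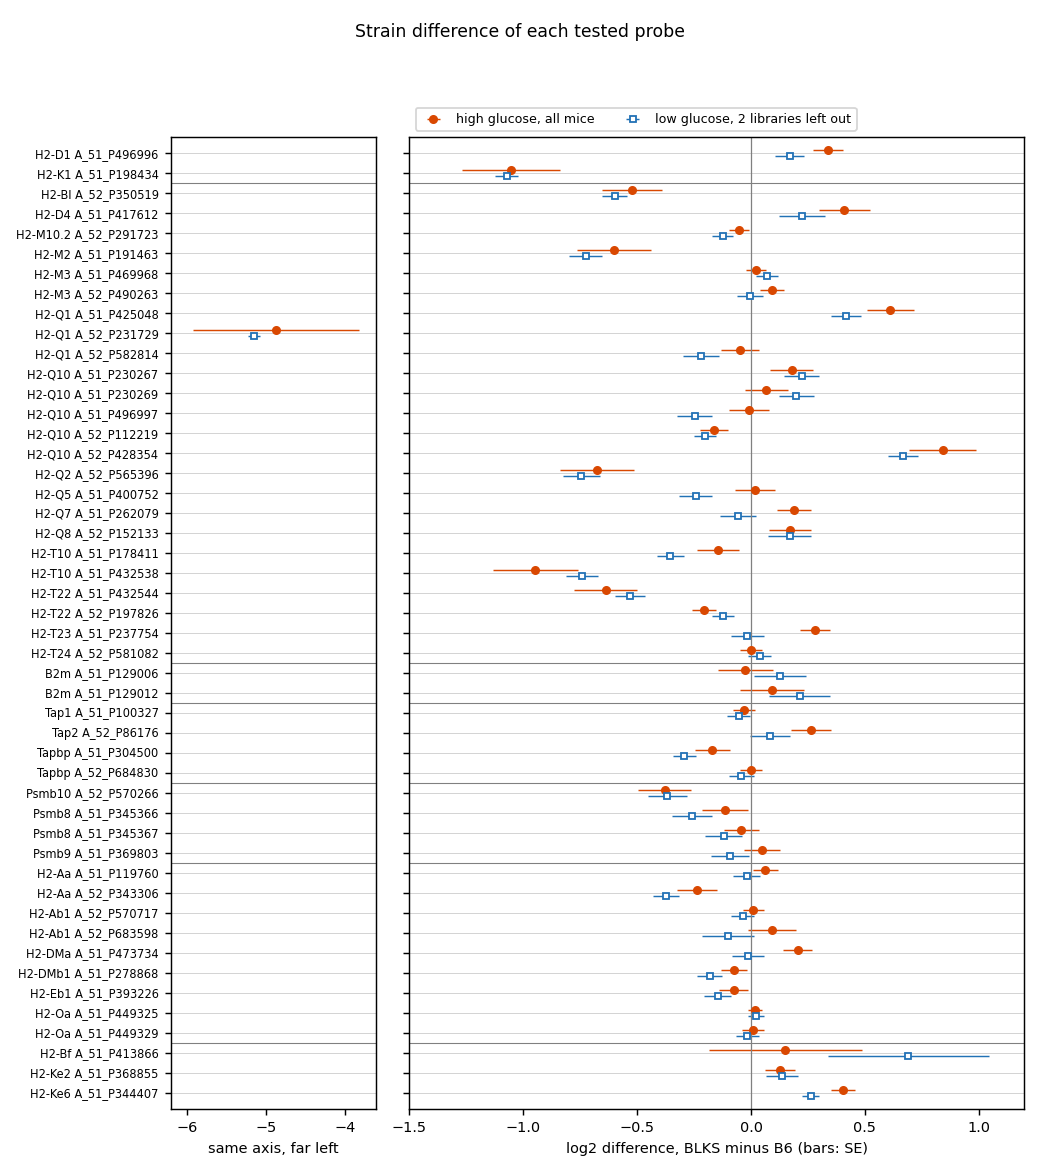
Strain difference (BLKS minus B6, log2, horizontal axis, with a separate stretch for values below -4) with its standard error for the 48 tested member probes, grouped by role, in high glucose with all mice (filled circles) and in low glucose with 2 libraries left out (open squares). In high glucose the 13 called heavy chain probes spread to both sides of 0, whereas the light chain probes lie at -0.03 and 0.09.

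Of the classical heavy chains, which present peptides to cytotoxic T cells, H2-K1 was lower and H2-D1 higher in BLKS islets. H2-K1 (probe A_51_P198434) read 13.76, 13.62, 13.74, 13.75 and 13.83 in the B6 mice in high glucose and 12.67, 12.62, 12.66 and 12.79 in the BLKS mice. Every B6 mouse stood above every BLKS mouse, with a gap far wider than the spread within either strain. The difference was -1.05 (SE 0.22, adjusted p = 0.00602), a 2.08-fold lower signal in BLKS. H2-D1 (A_51_P496996) read 12.10, 12.08, 12.17, 12.24 and 12.28 in B6 and 12.39, 12.53, 12.57 and 12.57 in BLKS. Here all BLKS mice lay above all B6 mice, by 0.34 (SE 0.07, adjusted p = 0.00435). An exact two-sided permutation test over the 126 divisions of the mice gave p = 0.00794 for each, the smallest value it can give. That test takes no account of the arrays shared by B6 and BLKS mice.

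The widest difference of any member was at 1 of the 3 probes of H2-Q1, a non-classical heavy chain gene of the Q region, and the probes of this gene went opposite ways. Probe A_52_P231729 read 11.02, 11.09, 11.05, 11.01 and 11.07 in B6 and 6.32, 6.12, 6.21 and 6.04 in BLKS. It was bright in every B6 mouse and near background in every BLKS mouse. The difference was -4.87 (SE 1.05, adjusted p = 0.0078). No background was subtracted and the BLKS values lie near it, so no fold is given. The SE of the difference was 0.08 once the 2 libraries that go against their labels were left out, since they enter the shared spread. Probe A_51_P425048 of the same gene read 9.39, 9.36, 9.51, 9.5 and 9.61 in B6 and 10.01, 10.10, 10.18 and 10.07 in BLKS. At this probe the BLKS mice were the higher ones, by 0.61 (SE 0.10, adjusted p = 0.00216). The third probe, A_52_P582814, differed by -0.05 and was not called.

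**Figure D3:**
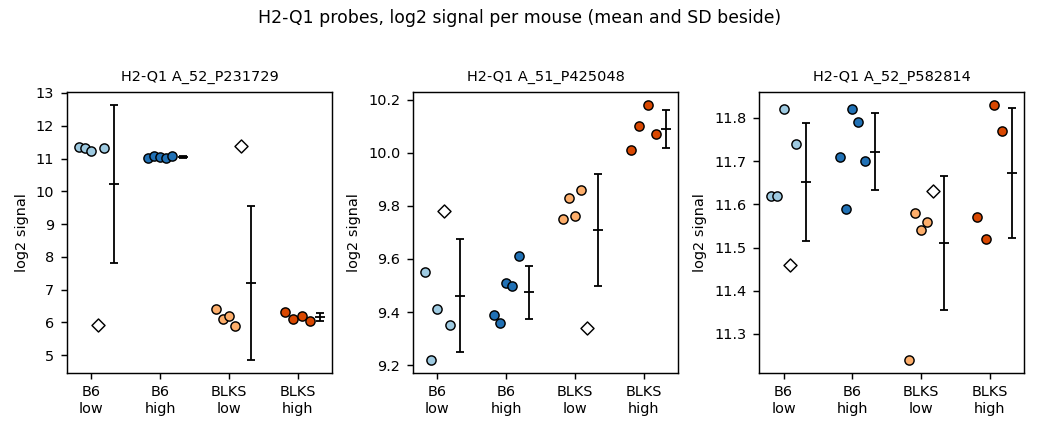
Log2 processed signal of the 3 tested H2-Q1 probes in each mouse of the 4 groups, 1 point a mouse, with the group mean and SD beside; open diamonds are the B6-labelled library 4 and the BLKS-labelled library 5 of low glucose, and the vertical axes do not start at 0. At A_52_P231729 the B6 high-glucose mice sit between 11.01 and 11.09 and the BLKS high-glucose mice between 6.04 and 6.32, and the order of the strains is the other way round at A_51_P425048.

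Probes of the other Q genes showed the same lack of a common direction. H2-Q10, which encodes a secreted class I molecule made mainly by the liver, read 8.56, 8.52, 8.68, 8.64 and 8.72 in B6 and 9.35, 9.48, 9.58 and 9.45 in BLKS at probe A_52_P428354. All BLKS mice were higher, by 0.84 (SE 0.15, adjusted p = 0.00261), whereas the other 4 probes of this gene differed by -0.16 to 0.18 and were not called with all mice. H2-Q2 (A_52_P565396) read 7.94 to 8.36 in B6 and 7.35 to 7.56 in BLKS, a difference of -0.68 (SE 0.16, adjusted p = 0.0127). The related pseudogene H2-D4 (A_51_P417612) was higher in BLKS by 0.41 (SE 0.11, adjusted p = 0.0249), with all BLKS mice (9.64 to 9.95) above the B6 mice (9.27 to 9.51). Its call was lost without B6 high glucose 1 or 2 or BLKS high glucose 3 or 4, with values of 0.36 to 0.38.

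In the T region, H2-T10 and H2-T22 were lower in BLKS islets at 1 and 2 probes. The product of H2-T22 is recognised by gamma-delta T cells, and H2-T10 is a transcribed pseudogene in RefSeq. H2-T10 (A_51_P432538) read 9.39, 9.28, 9.46, 9.45 and 9.51 in B6 and 8.45, 8.33, 8.60 and 8.51 in BLKS. The strains did not overlap, and the difference was -0.95 (SE 0.19, adjusted p = 0.00506). The other H2-T10 probe, A_51_P178411, differed by -0.15 and was not called. H2-T22 differed by -0.64 (SE 0.14, adjusted p = 0.008) at A_51_P432544 and by -0.21 (SE 0.05, adjusted p = 0.0184) at A_52_P197826, where the call was lost without B6 high glucose 4 or BLKS high glucose 1 or 2, with values of -0.18 to -0.19. H2-T23, which encodes the heavy chain of Qa-1, a ligand of the inhibitory NKG2A receptor of natural killer cells, read 12.31, 12.24, 12.31, 12.39 and 12.54 in B6 and 12.55, 12.66, 12.70 and 12.65 in BLKS. The lowest BLKS mouse stood just above the highest B6 mouse, and the difference was 0.28 (SE 0.07, adjusted p = 0.013). H2-Bl (A_52_P350519), a transcribed pseudogene in RefSeq, read 8.42 to 8.57 in B6 and 7.91 to 8.0 in BLKS, a difference of -0.52 (SE 0.13, adjusted p = 0.0153).

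In the M region, H2-M2 was lower in BLKS islets. H2-M2 (A_51_P191463, averaged over 10 spots) read 11.43, 11.39, 11.42, 11.56 and 11.72 in B6 and 10.86, 10.85, 10.99 and 10.91 in BLKS. The strains were well apart, with a difference of -0.60 (SE 0.16, adjusted p = 0.0238), and the call was lost without B6 high glucose 4 or 5 or BLKS high glucose 1, 2 or 4, with values of -0.55 to -0.60.

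The light chain gene B2m was not called. Its probe A_51_P129012 read 10.79, 10.46, 10.60, 10.42 and 10.74 in B6 in high glucose and 10.65, 10.85, 10.36 and 10.91 in BLKS. The strains overlapped fully. The differences were 0.09 (SE 0.14) and, at A_51_P129006, -0.03 (SE 0.12), and neither probe was called in any comparison.

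Among the genes that supply peptides, Psmb10, an inducible catalytic subunit of the immunoproteasome encoded on chromosome 8, was lower in BLKS islets. Psmb10 read 10.89, 10.63, 10.87, 10.70 and 11.16 in B6 and 10.46, 10.57, 10.42 and 10.44 in BLKS. The highest BLKS mouse lay just under the lowest B6 mouse. The difference was -0.38 (SE 0.12, adjusted p = 0.042), its adjusted p was 0.0954 with the array as a fixed block, and the call was lost in 9 of the 19 fits that each left out 1 mouse, with values of -0.43 to -0.30 over all 19. The other immunoproteasome subunits, Psmb8 at -0.11 and -0.04 on 2 probes and Psmb9 at 0.05, were not called. The transporter gene Tap2 was 0.26 higher in BLKS (SE 0.09, adjusted p = 0.0601) and was called with the array as a random block (adjusted p = 0.00151) and without both libraries. Tap1, which read near background at group means of 6.44 to 6.53, differed by -0.03. Tapbp, which encodes tapasin, differed by -0.17 (SE 0.08, adjusted p = 0.172, and 0.0216 without both libraries) at A_51_P304500 and by 0.00 at A_52_P684830.

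**Figure D4:**
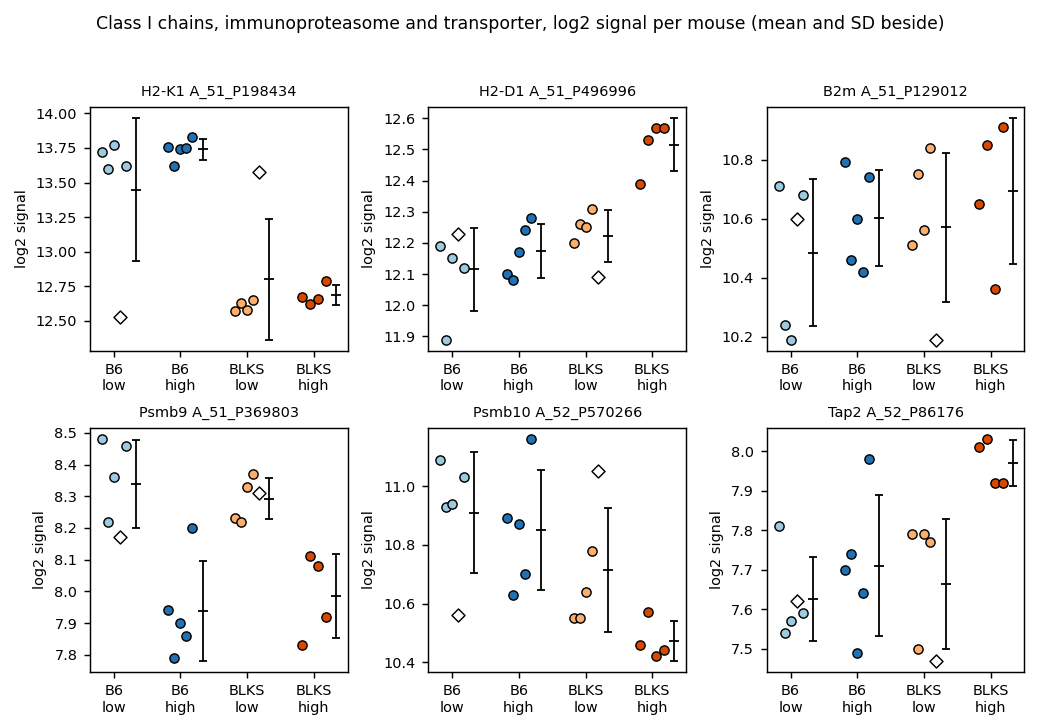
Log2 processed signal of 6 members of the class I pathway in each mouse of the 4 groups, 1 point a mouse, with the group mean and SD beside; open diamonds are the B6-labelled library 4 and the BLKS-labelled library 5 of low glucose, and the vertical axes do not start at 0. In high glucose H2-K1 is lower in BLKS (12.62 to 12.79) than in B6 (13.62 to 13.83), H2-D1 is higher, and B2m overlaps between all groups.

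Class II genes, which are expressed by antigen-presenting cells and present peptides from outside the cell to helper T cells, showed 1 call among 9 probes, a share (11.1%) no different from the 11.1% of all probes. H2-DMa, a chain of the molecule that loads class II, was 0.21 higher in BLKS (SE 0.06, adjusted p = 0.0457), but 14 of the 19 fits that left out 1 mouse lost the call, the value fell to 0.14 without BLKS high glucose 1, and the difference was 0.06 in Cy3 and 0.35 in Cy5. The class II chains H2-Aa (0.06 at A_51_P119760 and -0.24 at A_52_P343306), H2-Ab1 (0.01 at A_52_P570717 and 0.09 at A_52_P683598) and H2-Eb1 (-0.08) were not called. The H2-Aa probe A_52_P343306 was called without both libraries and with the array as a block. Both H2-Aa probes (group means of 6.16 to 6.58) and H2-Ab1 A_52_P570717 (6.2 to 6.3) read near background. H2-Ea was not well above background in any mouse. Of the 3 genes that are not MHC chains, H2-Ke6, a steroid dehydrogenase gene, was higher in BLKS by 0.40 (SE 0.05, adjusted p = 4.52e-04), with BLKS mice at 8.56 to 8.59 and B6 mice at 8.12 to 8.27.

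In low glucose, no member probe was called between the strains with all mice under their labels, where 0.0% of all 29330 probes were called. An unadjusted p under 0.05 was found at 15 of the 48 members, against 16.1% of all probes. Without the B6-labelled library 4 and the BLKS-labelled library 5 of low glucose, 18 of 48 were called, 3 higher and 15 lower in BLKS, against 15.6% of all probes (7.05% higher and 8.57% lower), and the groups did not overlap at 21, against 18.0%. With the B6-labelled one alone left out, 14 were called, against 9.15% of all probes. Both libraries were seen to go against their labels at 9 of these member probes, so leaving them out favours calls there. The member shares in these fits are therefore not an even comparison with those of all probes. With all mice and the array as a block, 12 (random, 16.1% of all probes) or 4 (fixed, 8.04%) were called.

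Probe A_52_P231729 of H2-Q1 shows how far the outcome rests on those libraries. It read 11.36, 11.32, 11.22, 5.92 and 11.32 in the libraries labelled B6 and 6.40, 6.12, 6.21, 5.89 and 11.37 in those labelled BLKS, the fourth B6 and the fifth BLKS library each reading as the other strain. The difference was -3.03 (adjusted p = 0.161) with both libraries and -5.15 (SE 0.08) without, and it was called without them. H2-K1 likewise read 13.72, 13.60, 13.77, 12.53 and 13.62 against 12.57, 12.63, 12.58, 12.65 and 13.58. The same 2 libraries changed places here, and the difference went from -0.65 to -1.07, and was called without them.

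Without both libraries, the strain difference in low glucose was called for 11 of the 16 probes called in high glucose (68.8% of that list and 61.1% of the low-glucose list, from different mice). The 9 probes by which the libraries' positions were given above are all among these 11, so the overlap is no independent support for leaving those libraries out. The 11, each with the same sign in both, were H2-K1, H2-Bl (-0.60), H2-M2 (-0.73), both H2-Q1 probes (A_51_P425048 at 0.42), H2-Q2 (-0.75), H2-Q10 A_52_P428354 (0.67), H2-T10 A_51_P432538 (-0.74), H2-T22 A_51_P432544 (-0.53), Psmb10 (-0.37) and H2-Ke6. H2-D1 differed by 0.17 and H2-T23 by -0.02 without both libraries, and neither was called in low glucose. Tapbp A_51_P304500 (-0.29) and H2-Aa A_52_P343306 (-0.37) were called in low glucose without both libraries. So were H2-T10 A_51_P178411 (-0.35), H2-Q10 A_51_P496997 (-0.25) and A_52_P112219 (-0.20), H2-Q5 (-0.24) and H2-DMb1 (-0.18), which makes up the 18. H2-Q10 A_52_P112219 (group means of 6.09 to 6.27) and H2-DMb1 (6.13 to 6.27) read near background.

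In B6 islets 2 of 48 member probes were called for the response to high glucose (4.17%), 1 higher and 1 lower, against 9.53% of all probes (5.41% higher and 4.12% lower). H2-M3, whose product presents N-formylated peptides of bacterial and mitochondrial origin, read 8.09, 8.24, 8.14, 8.14 and 8.08 in low and 8.42, 8.48, 8.55, 8.39 and 8.43 in high glucose at A_51_P469968. Every high-glucose mouse was above every low-glucose mouse, and the rise was 0.32 (SE 0.04, adjusted p = 7.1e-05). Psmb9, an inducible proteasome subunit, read 8.48, 8.22, 8.36, 8.17 and 8.46 in low and 7.94, 7.79, 7.90, 7.86 and 8.20 in high glucose. It fell by 0.40 (SE 0.08, adjusted p = 0.00217), with 1 high-glucose mouse inside the low-glucose range. Without both libraries 10 probes were called, 5 higher and 5 lower, against 12.2% of all probes (6.56% higher and 5.64% lower). Beside H2-M3 and Psmb9 these were H2-Bf (1.11), which is the complement factor B gene Cfb, H2-T10 A_51_P432538 (0.30), H2-T22 A_51_P432544 (0.29), H2-Q10 A_52_P428354 (0.22), H2-M2 (-0.34), H2-Q1 A_52_P231729 (-0.26), Psmb8 A_51_P345366 (-0.26) and Tapbp A_51_P304500 (-0.18).

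In BLKS islets 11 member probes were called (22.9%), 10 higher and 1 lower in high glucose, against 11.6% of all probes (6.47% higher and 5.13% lower). The heavy chains accounted for 7 of the 10. H2-M3 A_51_P469968 read 8.25, 8.13, 8.25, 8.20 and 8.14 in low and 8.49, 8.43, 8.42 and 8.56 in high glucose. The groups were apart, with a rise of 0.28 (SE 0.04, adjusted p = 2.99e-04). H2-D1 read 12.20, 12.26, 12.25, 12.31 and 12.09 in low and 12.39, 12.53, 12.57 and 12.57 in high glucose, a rise of 0.29 (SE 0.07, adjusted p = 0.00607). H2-T23 rose by 0.27 (SE 0.07, adjusted p = 0.0126), from 12.31 to 12.42 in low glucose to 12.55 to 12.70 in high glucose. These 3 rises were called without both libraries and in each fit that left out 1 mouse, and so was that of H2-Ke6 (0.22). Without both libraries they were 0.27 for H2-M3 A_51_P469968, 0.26 for H2-D1, 0.26 for H2-T23 and 0.18 for H2-Ke6.

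The other changes in BLKS islets lost their call in some of the fits that left out 1 mouse. H2-Q10 A_52_P428354 rose by 0.53 (SE 0.15, adjusted p = 0.0241), and by 0.39 without the library labelled BLKS low glucose 5. Its call was lost when that library, or BLKS high glucose 2, 3 or 4, was the only one left out. H2-D4 rose by 0.41 and lost its call without BLKS low glucose 1 or 5 or BLKS high glucose 3 or 4, with values of 0.36 to 0.39. H2-Q1 A_51_P425048 rose by 0.38 and lost its call without BLKS high glucose 2 or 3 (0.38 and 0.35). Its rise was 0.29 without both libraries and was called. The second H2-M3 probe, A_52_P490263, rose by 0.18 and lost its call without BLKS low glucose 1 and without BLKS high glucose 3 or 4 (0.15 to 0.16). That probe read near background, at group means of 6.24 to 6.43. Tap2 rose by 0.31 (SE 0.09, adjusted p = 0.0269), from 7.79, 7.50, 7.79, 7.77 and 7.47 to 8.01, 8.03, 7.92 and 7.92, and H2-DMa by 0.22 (SE 0.06, adjusted p = 0.0347). Without both libraries Tap2 (0.26) and H2-DMa (0.21) were not called, whereas H2-Q10 A_52_P428354, H2-D4 (0.36), H2-M3 A_52_P490263 (0.19) and Psmb9 (-0.30) were. Psmb9 fell by 0.31 (SE 0.08, adjusted p = 0.0178), from 8.22 to 8.37 in low glucose to 7.83 to 8.11 in high glucose, had an adjusted p of 0.073 with the array as a random block, and lost its call without BLKS high glucose 1 or 4 (-0.25 and -0.28). With the array as a random block 10 members were called, against 12.0% of all probes, and without both libraries 13, of which 12 rose, against 9.9% (5.55% higher and 4.35% lower). The 4 called in that fit alone were H2-Q10 A_51_P496997 (0.31), H2-Q5 (0.30), H2-T10 A_51_P178411 (0.25) and H2-Bl (0.19).

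**Figure D5:**
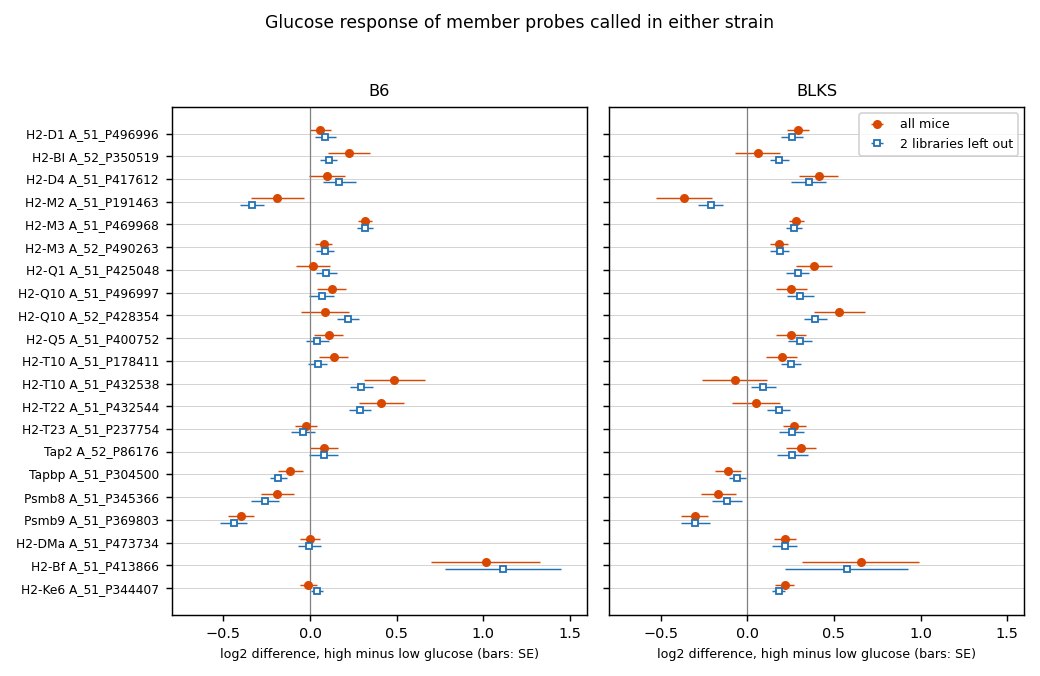
Glucose response (high minus low glucose, log2) with its standard error in B6 and in BLKS islets (horizontal axes) for 21 member probes called in either strain with or without the B6-labelled library 4 and the BLKS-labelled library 5 of low glucose; H2-Q1 A_52_P231729 is left out because its value with all mice rests on both libraries. Filled circles hold all mice and open squares leave both libraries out. H2-M3 lies at 0.32 in B6 and 0.28 in BLKS and Psmb9 at -0.40 and -0.31, and H2-D1 and H2-T23 lie at 0.29 and 0.27 in BLKS.

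The glucose responses of the strains were not shown to differ for any member. No probe was called for the difference between the responses (0.0409% of all probes were). An unadjusted limma p under 0.05 was found at 8 of the 48 members, a larger share than the 4.42% of all probes. H2-T23 came closest among the heavy chains, with a response 0.30 higher in BLKS (SE 0.09, adjusted p = 0.763, and 0.0556 with the array as a random block). A call in BLKS islets without one in B6 islets therefore does not show a difference, and the 4 BLKS mice in high glucose enter both the strain difference and the BLKS response. In the BLKS response Psmb8 was at -0.17 and -0.16, Tap1 at 0.06, Tapbp at -0.11 and -0.04, and in the B6 response Psmb8 was at -0.19 and -0.18, Tap1 at 0.05, Tap2 at 0.08, and Tapbp at -0.11 and -0.08, none of them called with all mice. The class II chains ranged from -0.26 (H2-Ab1 A_52_P683598) to -0.04 (H2-Aa A_52_P343306) in B6 and from -0.12 (H2-Eb1) to 0.01 (H2-Aa A_51_P119760) in BLKS.

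Further genes of the pathway, each by its brightest probe, were read from lists, whose counts in high glucose stand beside 11.1% of all probes called with all mice, 15.3% without both libraries and 25.2% with the array as a random block. Of 10 tested genes of class I loading and the standard proteasome, 2 were called between the strains in high glucose with and without both libraries and 4 with the block. They were the constitutive catalytic subunits Psmb5 (0.27) and Psmb6 (-0.36). Of 11 tested regulators, 3 were called with all mice, namely Rfxank (0.39), which helps to activate MHC promoters, and the interferon signalling genes Irf2 (-0.22) and Jak1 (-0.23). Irf1 (-0.43), an interferon-induced transcription factor gene, was called in addition without both libraries, and 5 regulators were called with the block. Of 5 tested genes of the interferon gamma response, Irgm1 (-0.21) was called with all mice, Igtp (-0.11) also without both libraries, and 3 with the block. Of the 4 genes of the class II path none was called with or without both libraries and 1 with the block.

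In low glucose no listed gene was called between the strains with all mice. Without both libraries, where 15.6% of all probes were called, 4 of the loading and proteasome genes were called, Psmb5 (0.31), Psmb6 (-0.35), the trimming peptidase gene Erap1 (-0.26) and the proteasome activator gene Psme1 (-0.20). So were the regulators Irf1 (-0.45), Jak1 (-0.20) and Rfxank (0.36), the interferon gamma response genes Irgm1 (-0.20) and Igtp (-0.14), and Ifi30 (0.46), a lysosomal reductase gene of the class II path.

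High glucose raised the chaperone gene Pdia3 (0.27) and Psmb5 (0.22) and lowered Psme1 (-0.31) in B6 islets, 3 of the 10, against 9.53% of all probes. Without both libraries Psmb6 (0.18) was called too, against 12.2%. In BLKS islets it raised Calr (0.62), another chaperone gene, Pdia3 (0.30) and Psmb5 (0.27) and lowered Psme1 (-0.32), 4 of the 10, against 11.6% of all probes. These 4 were also called without both libraries, at 0.54, 0.28, 0.22 and -0.27. The list's median response with all mice was 0.09 in B6 and 0.10 in BLKS, against -0.01 and 0.00 over all probes. Of the regulators, the interferon gamma receptor gene Ifngr1 (0.22) rose in B6 islets, and Irf1 (-0.31) and Jak1 (-0.18) were called in addition without both libraries. In BLKS islets Jak1 (-0.24, and -0.21 without both) and Irf2 (-0.17) fell, and Irf2 was not called without both libraries (adjusted p = 0.078). Ifi30 rose in B6 islets by 0.42, and by 0.49 without both libraries. No gene of the interferon gamma response was called with all mice in either strain, and Igtp (0.11) was called in BLKS islets without both libraries.

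Islets hold other cells that express MHC genes, and in bulk RNA fewer cells of a type and less RNA per cell cannot be told apart. Of 10 tested leukocyte markers, Lyz2, a macrophage gene, was called in high glucose, being lower in BLKS islets by 0.76. The summed linear signal of the leukocyte markers was 2496.1 to 3056.4 in BLKS and 3043.5 to 4292.1 in B6 in high glucose, and 3082.8 to 4502.1 and 3723.7 to 4892.7 in low glucose. Much of that sum was Lyz2. With Lyz2 left out, a choice made after its values were seen, the sum was 1413.7 to 1542.5 in BLKS and 1367.0 to 1523.0 in B6 in high glucose, and 1487.8 to 1612.2 and 1429.0 to 1653.7 in low glucose, and the strains overlapped in both. The list's median strain difference in high glucose was 0.00. The pan-leukocyte marker Ptprc was near background, at group means of 6.27 to 6.35, and Itgam was not well above background.

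In high glucose 11.1% of all probes were called between the strains. The endothelial genes Cdh5 (-0.46) and Kdr (-0.37) of 4 and the fibroblast genes Col1a1 (-1.34) and Col3a1 (-0.95) of 3 were lower in BLKS. The acinar gene Cela1 (0.74) of 5 and the duct gene Krt19 (1.13) of 2 were higher. In low glucose none of these marker genes was called with all mice, where 0.0% of all probes were called. Without both libraries, where 15.6% of all probes were called, Lyz2 (-0.58), Cdh5 (-0.26), Kdr (-0.43), Cela1 (0.76) and Krt19 (1.12) were. With high glucose in B6 islets, where 9.53% of all probes were called, Kdr (-0.29) and the acinar gene Ctrb1 (-0.36) fell. The fibroblast gene Dcn (0.39) rose. These 3 genes were at -0.33, -0.37 and 0.43 without both libraries, where 12.2% of all probes were called. With high glucose in BLKS islets, where 11.6% of all probes were called with all mice, Lyz2 (-0.60), Cdh5 (-0.30), Kdr (-0.31) and Ctrb1 (-0.32) fell. Without both libraries, where 9.9% of all probes were called, Cdh5 (-0.29) and Ctrb1 (-0.33) were called while Lyz2 (-0.47) and Kdr (-0.27) were not. The part of these cells in the differences of the MHC genes was not tested.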

How the data were processed

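Islet RNA of 19 mice in 4 groups was measured on 20 dye-swapped 2-colour Agilent arrays. The authors deposited scanner intensity files made with Agilent Feature Extraction 9.5.3.1 per the file headers (the submitters' processing notes name 8.1), with signals dye-normalized by a linear and LOWESS method and no background subtracted. The authors also deposited a table of log2 values, which equal each mouse's log2 mean signals averaged over dyes with no scaling between arrays. B6 low glucose 1 was on 4 arrays and counted once; samples were grouped by GEO's labels.

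From the scanner files, log2 processed signals were taken, outlier spots masked, channels scaled between arrays (Aquantile), and spots, dyes and arrays averaged per mouse. Probes well above background in all channels of at least 4 mice were kept (29330 of 41174). This flag is lax in Cy3, where a median of 83.9% of the negative controls passed it, against 0.318% in Cy5. Group means were fitted with limma 3.58.1 in R 4.3.3 over all 29330 probes, with Benjamini-Hochberg adjustment at 0.05. Single probes also got an exact two-sided permutation test (Python 3.11.15 with numpy 2.4.6). Simulated strain differences in high glucose at 200 of 29327 probes were recovered for 98.5%, with 3.9% false calls. The simulated differences were at least 0.5 in size, and mice were simulated as independent. The recovery of smaller differences, as at many members, and the effect of shared arrays were not tested by it. Mice of one number and glucose shared an array per the labels, except B6 high glucose 5, which shared its arrays with B6 low glucose 1: their deviations from group means correlated with a median r of 0.48 over 9 pairs (0.02 to 0.69), against -0.01 over 126 other pairs, and the fit with this pairing as a block (consensus correlation 0.545) is given beside results it changes. The number of arrays limits precision.

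The members and lists were chosen with earlier results of these data known. Values are given for every tested probe of the 7 genes without an H2- name, of the classical class I and main class II chains, and for every other member called in any comparison with all mice (32 probes of 24 genes). Members called only without both libraries that go against their labels are named for that, and the rest are given as counts and ranges. The array's gene names were matched to RefSeq (GRCm38.p6), 52 member probes by accession and 13 by symbol. Alternatives were other background correction, scaling, filters, dyes, scans, the authors' table, the methods' linear model, each mouse left out, and the 2 libraries that go against their labels left out.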

Additional observations from a re-analysis of the deposited data

Results flagged for a closer look

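In each group of 4 or 5 mice, the highest or lowest mouse was examined for a gap to its neighbour that was large against the whole range of the group (Dixon's limit, which chance alone passes in about 1 in 20 groups). Over 32 probes in 4 groups, 128 in all, 16 were flagged, of which 10 were the library labelled BLKS low glucose 5 and 3 the library labelled B6 low glucose 4.

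The library labelled BLKS low glucose 5 stood apart at H2-Q1 A_52_P231729 (11.37 against 6.40 in the nearest BLKS low-glucose mouse), H2-K1 (13.58 against 12.65), H2-M2 (11.88 against 11.20), H2-T22 A_51_P432544 (7.75 against 7.15), H2-Q2 (7.89 against 7.31), H2-Bl (8.42 against 7.89), H2-Aa A_52_P343306 (6.49 against 6.17) and Tapbp A_51_P304500 (12.06 against 11.83), all higher than the others of its label. It was lower than the others at H2-Q10 A_52_P428354 (8.38 against 8.97) and H2-Q1 A_51_P425048 (9.34 against 9.75). The library labelled B6 low glucose 4 stood apart at H2-Q1 A_52_P231729 (5.92 against 11.22), H2-K1 (12.53 against 13.60) and H2-T10 A_51_P432538 (8.18 against 9.04), each time lower.

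The remaining 3 were single probes of 3 mice, namely Tap2 in B6 low glucose 1 (7.81 against 7.62), H2-M3 A_52_P490263 in BLKS low glucose 1 (6.16 against 6.26) and H2-Bl in BLKS high glucose 1 (7.91 against 8.0).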

How the results depend on the processing

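Each count of members called is followed by the share of all probes called in the same fit. The methods' linear model was fitted here to single dyes, with no block for the mouse. It thus counted the 2 dyes of a mouse as separate replicates, so its counts are inflated for members and for all probes. The strain difference in high glucose (16 members with all mice, 11.1%) gave 10 calls from the authors' table (3.19%) and 12 to 18 in the fits that left out 1 mouse each (7.1% to 13.3%). The strain difference in low glucose (0 called with all mice) gave 2 in Cy3 alone (4.26%), 12 with the array pairing as a random block (16.1%) and 4 as a fixed block (8.04%), 13 by the methods' linear model (12.6%), 18 without the B6-labelled library 4 and the BLKS-labelled library 5 of low glucose (15.6%), 25 without both and with the random block (25.4%, chosen after seeing the data), and 0 to 14 with each mouse left out (0.0% to 9.15%). The glucose response in B6 (2, 9.53%) gave 4 with no scaling (5.47%), 4 with the filter at all mice (12.4%), 4 in Cy3 alone (8.36%), 10 without both libraries (12.2%), 9 by the methods' linear model (18.9%), 6 without both and with the block (10.5%), and 2 to 4 with each mouse left out (6.56% to 10.4%). The glucose response in BLKS (11, 11.6%) gave 5 with no scaling (7.33%), 1 from the authors' table (3.4%), 3 in Cy5 alone (8.48%), 19 by the methods' linear model (22.6%) and 7 to 12 with each mouse left out (7.8% to 12.5%). The difference between the responses (0) gave 2 by the methods' linear model (0.726%) and 0 to 0 with each mouse left out (0.00341% to 0.0546%). H2-Q1 A_52_P231729 responded to glucose in B6 by 0.82 with all mice and by -0.26 without both libraries, the only reversal. The cause of the other shifts was not tested. Of 29 named differences called, 12 were called from the authors' table, 19 in Cy5 alone, 27 in Cy3 alone, 20 with no scaling, and 28 with the random block. A glucose response within a strain could not be estimated with the fixed block. Member counts without both libraries are favoured, since 9 member probes were used to place those libraries. Probes near background limit what dim members can show.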

Other observations

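Further probes described on the array as class I antigens fell outside the member rule because their gene names do not start with H2-. A probe to an H2-K exon (A_52_P50496) read 9.28 to 9.59 in B6 and 7.68 to 7.84 in BLKS islets in high glucose. The difference was -1.67 (SE 0.39, adjusted p = 0.0117). In low glucose it was -1.06 with all mice and not called (limma adjusted p = 0.179). It was -1.84 and called without the B6-labelled library 4 and the BLKS-labelled library 5 of low glucose. The probes A_51_P190499 and A_52_P313279, to an H-2K antigen of another haplotype, were lower in BLKS in high glucose by -1.01 and -0.44, and were called. A probe to a Q5-like class I antigen (A_51_P502456) was higher in BLKS by 0.27 (adjusted p = 0.0111) and rose with glucose in BLKS islets by 0.34 (adjusted p = 0.00122). The remaining probes of this kind were not called between the strains in high glucose with all mice. One of them, A_52_P474242 to an H-2K antigen, was at -0.35 (limma adjusted p = 0.0769, and 0.00526 without both libraries). The others were A_51_P219789 (0.15), A_52_P779936 (-0.06), A_52_P891818 (-0.10) and A_52_P353242 (0.02).

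Genes that lie between the outermost H2- genes on chromosome 17 without being members were also read. Of 96 tested, 14 were called between the strains in high glucose (14.6%, against 11.1% of all probes), 10 higher in BLKS, such as Neu1 (0.43), a lysosomal sialidase gene, and 4 lower, such as Ppp1r10 (-0.46). Without both libraries 19 were called, against 15.3%, and with the array as a random block 30, against 25.2% of all probes.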
